A study of Mus musculus with 8 samples.

Results

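The alpha-globin cluster of the mouse was taken as every ATAC-seq peak that overlaps an 80 kb window of chromosome 11 (mm9, chr11:32130000-32210000). This window holds 16 of the 134473 peaks of the table. They were chosen by position alone, with no use of their counts. The window takes in Nprl3, a gene of nutrient signalling that houses most of the enhancers, and then the globin genes Hba-x, Hba-a1 and Hba-a2. The positions used here were 32183700 for Hba-a1 and 32196500 for Hba-a2. Of the 16 peaks, 12 lay up to 32170000, here called the enhancer section by position alone, and 4 lay beyond it in the globin gene section. Each section is 40 kb long. Each peak is named below by the distance of its centre from the Hba-a1 position in kb, negative toward Nprl3.

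The libraries came from bone marrow of C57BL/6 mice aged 8 to 12 weeks, with 500 sorted cells in each and 4 libraries in each group. Accessible DNA was tagged with the Tn5 transposase by the Omni-ATAC procedure. One group was Vwf+Gata1+ MPP2, sorted as LSKFlt3-CD150+CD48+Vwf+Gata1+, and the other Vwf-Gata1+ MPP2, sorted as LSKFlt3-CD150+CD48+Vwf-Gata1+. MPP2 cells are multipotent progenitors biased toward megakaryocytes and red cells, and both groups were positive for Gata1, a transcription factor of these lineages. The labels name neither the way Vwf and Gata1 were detected nor the animals behind each library, so p-values measure the spread between libraries, which may be technical.

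Alpha-globin pairs with beta-globin in haemoglobin, and red cell precursors switch both on strongly late in their maturation. Hba-x is the embryonic gene of the cluster, while Hba-a1 and Hba-a2 are the adult genes. Hbq1b and Hbq1a are the theta-like copies that follow each adult gene. In red cell precursors the adult genes are driven by enhancers named R1, R2, R3, Rm and R4, in this order toward the globin genes, most of them inside the introns of Nprl3. These enhancers bind GATA1 and TAL1 in red cell precursors, and in mouse models R1 and R2 contribute most of the activity. The comparison of Vwf+Gata1+ with Vwf-Gata1+ MPP2 asks here whether the opening of this enhancer set differs between the groups. These were sorted as positive or negative for Vwf, a gene of megakaryocytes.

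The promoters of the cluster are shown first because the 2 adult genes carry copies of one sequence, which bears on what a peak there can show. The sequences are the 250 bases before the transcription start from RefSeq in build GRCm38.p6, which is not the build of the peaks, and all 7 genes from Mpg to Hbq1a were matched by symbol. Capitals mark matches on either strand to a GATA motif (GATA with A or T before it and A or G after it), a CACCC motif (CACCC with C before it), the CCAAT motif, and a TATA motif (TATAA with A or G after it). They lie at chr11:32276350-32276599 for Hba-x, chr11:32283422-32283671 for Hba-a1 and chr11:32296242-32296491 for Hba-a2, all on the plus strand, and at chr11:32267708-32267957 on the minus strand for Nprl3.
Hba-x: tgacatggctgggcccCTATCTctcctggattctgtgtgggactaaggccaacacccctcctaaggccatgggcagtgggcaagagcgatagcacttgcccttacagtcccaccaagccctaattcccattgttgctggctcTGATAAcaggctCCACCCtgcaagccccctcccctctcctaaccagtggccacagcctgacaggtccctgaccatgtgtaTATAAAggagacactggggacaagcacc
Hba-a1: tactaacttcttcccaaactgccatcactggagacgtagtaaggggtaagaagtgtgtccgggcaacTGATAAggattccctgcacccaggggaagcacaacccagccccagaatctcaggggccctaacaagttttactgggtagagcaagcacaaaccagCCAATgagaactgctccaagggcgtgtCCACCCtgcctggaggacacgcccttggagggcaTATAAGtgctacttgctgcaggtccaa
Hba-a2: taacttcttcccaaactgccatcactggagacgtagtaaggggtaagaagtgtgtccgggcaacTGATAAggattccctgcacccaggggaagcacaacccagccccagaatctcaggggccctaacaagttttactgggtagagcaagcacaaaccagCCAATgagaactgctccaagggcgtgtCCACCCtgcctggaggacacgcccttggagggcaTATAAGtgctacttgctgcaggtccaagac
Nprl3: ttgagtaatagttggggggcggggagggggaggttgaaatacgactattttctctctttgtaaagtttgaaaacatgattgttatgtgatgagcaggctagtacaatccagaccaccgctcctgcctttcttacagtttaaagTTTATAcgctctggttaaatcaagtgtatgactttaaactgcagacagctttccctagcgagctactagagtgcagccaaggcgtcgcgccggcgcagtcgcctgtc

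The Hba-a1 and Hba-a2 stretches were identical over all 247 bases that they share, with the Hba-a2 start placed 3 bases further on. Each of these promoters held 1 match to each of the 4 motifs, with the GATA match at -183 and the TATA match at -27 from the Hba-a1 start. Hba-x held 2 GATA matches, 1 CACCC match and a TATA match at -28, and no CCAAT. The Nprl3 stretch held only a TATA match, in the opposite orientation. Of 32851 promoter stretches of this length, 26.5% held the GATA motif, 28.1% the CACCC motif, 33.9% CCAAT and 17.0% the TATA motif, and 0.393% held all 4. A match describes letters and not binding.

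The promoters of the theta-like genes are shown for contrast, since they are also copies of each other. They lie at chr11:32286714-32286963 for Hbq1b and chr11:32299819-32300068 for Hbq1a, both on the plus strand (GRCm38.p6), and capitals here mark the bases at which the pair differs.
Hbq1b: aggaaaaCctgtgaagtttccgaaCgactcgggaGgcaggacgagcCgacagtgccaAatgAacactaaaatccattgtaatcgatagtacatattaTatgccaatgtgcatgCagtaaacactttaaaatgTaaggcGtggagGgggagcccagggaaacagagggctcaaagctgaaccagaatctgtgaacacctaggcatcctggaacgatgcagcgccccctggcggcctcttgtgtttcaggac
Hbq1a: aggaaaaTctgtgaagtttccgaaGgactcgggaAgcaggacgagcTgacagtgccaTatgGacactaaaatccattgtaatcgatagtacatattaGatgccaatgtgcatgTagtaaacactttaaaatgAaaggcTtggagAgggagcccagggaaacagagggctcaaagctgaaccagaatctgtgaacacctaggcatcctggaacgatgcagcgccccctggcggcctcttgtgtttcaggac
This pair was identical at 239 of 250 bases, with 11 differences, and its longest identical run was 105 bases. All 11 differences fall in the part far from the start, and the 105 bases next to the start are the same in both.

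No peak of the table overlapped the position of Hba-a1 or of Hba-a2. The Hba-a1 position lay in a stretch of 15.3 kb without a peak (mm9, chr11:32171470-32186745), and the Hba-a2 position in a stretch of 12.4 kb without one (chr11:32187465-32199876). These were the longest and second longest such stretches of the window. In the GRCm38.p6 gene order Hba-x stands between Nprl3 and Hba-a1, and its mm9 position was not used here. From 32170000 to the Hba-a1 position the table held 1 peak, at -12.4 kb. Such distances are not rare, since 21.5% and 26.2% of all gaps between neighbouring peaks were longer, with a median gap of 5.54 kb. The nearest peaks were 3.05 kb after the Hba-a1 position and 3.38 kb after the Hba-a2 position. The sources used here do not say whether reads that map equally well to both copies were kept. The Hba-x promoter stretch matched that of Hba-a1 at only 74 of 248 bases, aligned without gaps. The peaks at 3.2 and 16.6 kb lay where the GRCm38.p6 gene order places Hbq1b and Hbq1a, which are also copies. The part of the copied sequence in the absence of peaks was not tested, and counts outside the peaks were not analysed here.

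Accessible sites were concentrated on the side of Nprl3. The enhancer section held 3 peaks per 10 kb, against 1 per 10 kb in the globin gene section. Its summed signal was 97.1, 91.0, 94.2 and 94.6 CPM (counts per 1000000, after TMM scaling) in replicates 1 to 4 of Vwf+Gata1+ MPP2, against 98.7, 100.2, 95.6 and 82.6 CPM in replicates 1 to 4 of Vwf-Gata1+ MPP2. The groups overlapped, and replicate 4 of Vwf-Gata1+ MPP2 was the lowest of the 8. The globin gene section summed to 22.5, 21.4, 18.1 and 19.3 CPM in Vwf+Gata1+ MPP2, against 20.5, 18.6, 17.7 and 18.7 CPM in Vwf-Gata1+ MPP2. This was 21.6% ± 2.11 of the enhancer section in Vwf+Gata1+ MPP2 and 20.1% ± 1.96 in Vwf-Gata1+ MPP2 (SD, n = 4 each). Over the whole window the sum was 114.5 ± 3.44 CPM in Vwf+Gata1+ MPP2 and 113.2 ± 8.36 CPM in Vwf-Gata1+ MPP2, a ratio of 1.01. These sums are descriptions without a test. The enhancer section is also not enhancers alone. Of its mean of 94.2 CPM over the 8 libraries, 23.5 CPM came from the -16.1 kb peak, placed below at the Nprl3 promoter without a test.

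**Figure D1:**
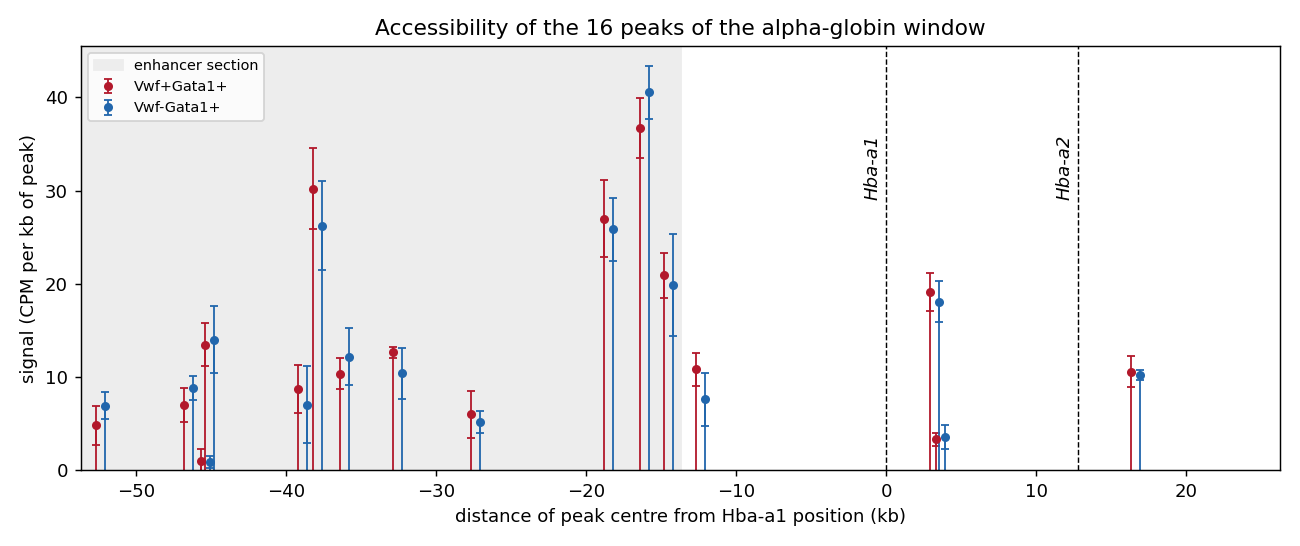
Mean signal in CPM per kb of peak width (y axis) of the 16 peaks of the alpha-globin window against the distance of their centres from the Hba-a1 position in kb (x axis), for Vwf+Gata1+ and Vwf-Gata1+ MPP2, with bars for the SD over 4 libraries, points of the groups set slightly apart, and grey shading for the enhancer section. The tallest peaks stand at -37.9, -18.5 and -16.1 kb, and no peak stands at the dashed lines of Hba-a1 and Hba-a2.

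Relative to other parts of the genome the window was rich in open sites. Of 21483 windows of 80 kb that held a peak, 94.9% had fewer than 16 peaks, with a median of 5, and 87.3% had a lower summed signal. The neighbouring 80 kb before the window held 14 peaks that summed to 145.3 ± 3.51 CPM in Vwf+Gata1+ MPP2 and to 135.5 to 159.1 CPM over the libraries of Vwf-Gata1+ MPP2. The 80 kb after it held 10 peaks that summed to 56.9 ± 2.81 CPM in Vwf+Gata1+ MPP2 and 56.6 ± 5.31 CPM in Vwf-Gata1+ MPP2 (SD, n = 4 each). The signal of the window therefore lay between those of its neighbours. Single peaks of the window ranged widely, from the lowest 0.0104% of all peaks by mean CPM to the 91.5th percentile, with a median at the 67.5th.

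**Figure D2:**
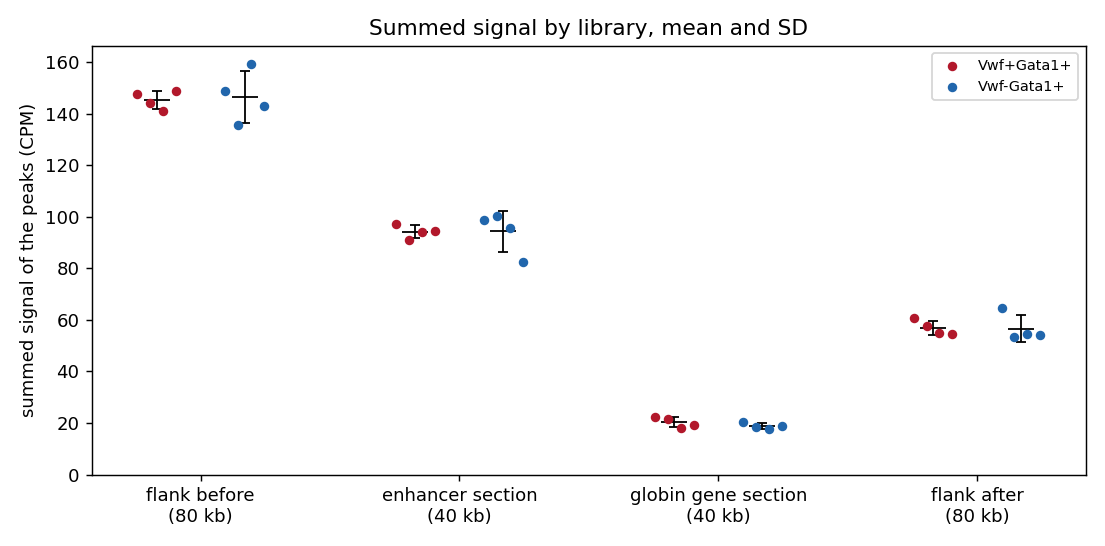
Summed signal of the peaks in CPM (y axis) in the 80 kb before the window, the enhancer section, the globin gene section and the 80 kb after the window (x axis), with 1 point per library of Vwf+Gata1+ and Vwf-Gata1+ MPP2 and bars for the mean and SD over 4 libraries. In each of the 4 regions the points of the groups overlap.

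Of the 16 peaks, 13 passed the filter on low counts and were tested, 10 in the enhancer section and 3 in the globin gene section. By edgeR's quasi-likelihood test none of the 13 passed the adjusted threshold of 0.05, and none had an unadjusted p under 0.05. Over all 97040 tested peaks, 14 were called, which is 0.0144%, and 6.72% had an unadjusted p under 0.05, so 0 of 13 is near the background. DESeq2 called 0 of 12, since it gave no adjusted p for the -38.9 kb peak, and limma-voom with quality weights for the libraries called 0 of the 13. By either, 0 of the 13 had an unadjusted p under 0.05. At none of the 13 did the libraries of one group lie wholly apart from those of the other, which happened at 3.88% of all tested peaks. The adjusted p ran from 0.826 to 0.983 (edgeR). The log2 fold change, Vwf+Gata1+ minus Vwf-Gata1+, was above 0 at 9 peaks and below 0 at 4, with a median of 0.08, against a median of 0.0039 and 50.7% above 0 over all tested peaks.

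A p above the threshold does not show equal opening, so the intervals set the limit of what these libraries can tell. The 95% interval of the difference lay within 1.5-fold in either direction at 8 of the 13 peaks and within 2-fold at 12. Over all tested peaks these shares were 41.5% and 85.6%. The exception to 2-fold was the -12.4 kb peak, whose interval reached 2.13-fold higher in Vwf+Gata1+ MPP2. At the -38.9 kb peak the interval ended almost on that bound, at 1.99994-fold higher in Vwf+Gata1+ MPP2. Toward lower signal in Vwf+Gata1+ MPP2 the farthest bound was 0.549-fold, at the -46.5 kb peak. No adjustment for the number of peaks was made in these intervals.

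**Figure D3:**
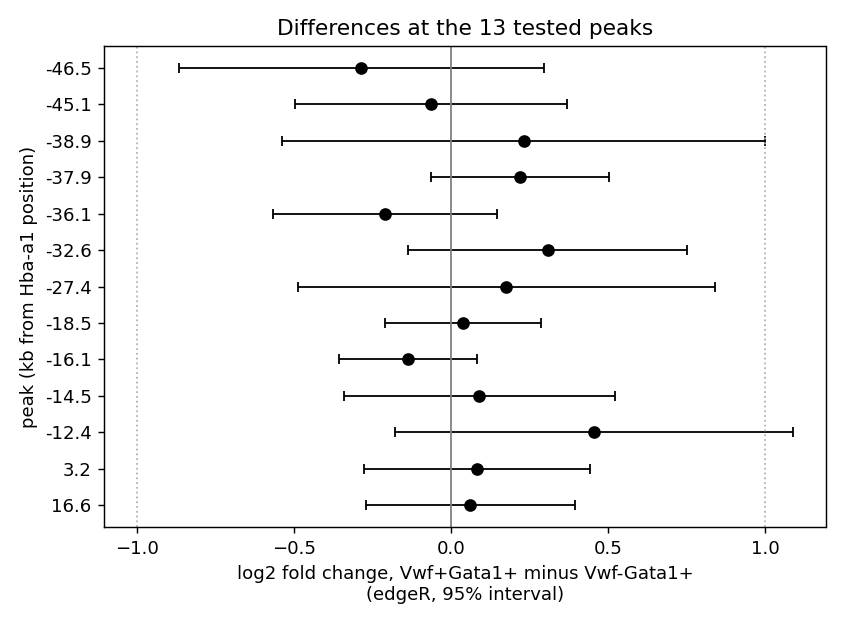
Log2 fold change, Vwf+Gata1+ minus Vwf-Gata1+ (x axis, edgeR fit with the 95% interval), at the 13 tested peaks of the window, ordered along the chromosome (y axis, kb from the Hba-a1 position), with dotted lines at 2-fold. Each interval holds 0. The one at -12.4 kb passes the dotted line, and the one at -38.9 kb ends almost on it.

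The strongest site of the window was the -16.1 kb peak (chr11:32167249-32167857, 609 bp), at the 91.5th percentile of all peaks. It had 21.5, 20.5, 22.5 and 25.0 CPM in replicates 1 to 4 of Vwf+Gata1+ MPP2, against 24.4, 22.8, 26.9 and 24.7 CPM in replicates 1 to 4 of Vwf-Gata1+ MPP2. All but replicate 4 of the libraries of Vwf+Gata1+ MPP2 lay below the lowest of Vwf-Gata1+ MPP2, and replicate 4 lay among the higher values of that group. In the fit this was a log2 difference of -0.14 ± 0.11 (SE; edgeR adjusted p = 0.873), and the interval ran from 0.781-fold to 1.06-fold. This peak took 19.5% ± 1.87 of the counts of the window in Vwf+Gata1+ MPP2 and 21.9% ± 2.51 in Vwf-Gata1+ MPP2 (SD, n = 4 each).

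From background knowledge of the mouse locus, the Nprl3 promoter lies between Rm and R4, and by order and spacing the -16.1 kb peak would be that promoter. In the same way the peaks at -37.9, -32.6, -27.4, -18.5 and -14.5 kb would be R1, R2, R3, Rm and R4. No annotation of mm9 was used here, so this placement was not tested, and the peaks keep their distances as names.

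The -37.9 kb peak (chr11:32145508-32146078, 571 bp), where R1 would lie, had 16.6, 20.1, 14.2 and 18.1 CPM in replicates 1 to 4 of Vwf+Gata1+ MPP2, against 15.6, 15.4, 17.7 and 11.2 CPM in replicates 1 to 4 of Vwf-Gata1+ MPP2. The highest library was one of Vwf+Gata1+ MPP2 and the lowest one of Vwf-Gata1+ MPP2, and the others were mixed. Its fitted log2 difference was 0.22 ± 0.14 (SE; edgeR adjusted p = 0.826), with an interval from 0.956-fold to 1.42-fold. It had the lowest unadjusted p of the 13, 0.126 (edgeR). Leaving out single libraries moved the log2 value between 0.10, without replicate 4 of Vwf-Gata1+ MPP2, and 0.30, without replicate 3 of Vwf-Gata1+ MPP2. Without replicate 3 of Vwf+Gata1+ MPP2 it was 0.29 (edgeR unadjusted p = 0.0495, adjusted p = 0.82).

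The -32.6 kb peak (chr11:32150856-32151280, 425 bp), where R2 would lie, had 5.40, 5.44, 5.04 and 5.61 CPM in replicates 1 to 4 of Vwf+Gata1+ MPP2, against 3.66, 5.54, 5.27 and 3.21 CPM in replicates 1 to 4 of Vwf-Gata1+ MPP2. The libraries of Vwf+Gata1+ MPP2 were close together, while those of Vwf-Gata1+ MPP2 fell into a higher and a lower pair. The fit put the log2 difference at 0.31 ± 0.22 (SE; edgeR adjusted p = 0.849). Leaving out single libraries moved it between 0.18, without replicate 4 of Vwf-Gata1+ MPP2, and 0.44, without replicate 2 of Vwf-Gata1+ MPP2. Counts were 22 to 41 per library.

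The -27.4 kb peak (chr11:32156101-32156477, 377 bp), where R3 would lie, was the weakest of these sites. It had 1.98, 1.69, 3.67 and 1.73 CPM in replicates 1 to 4 of Vwf+Gata1+ MPP2, against 1.96, 1.85, 2.54 and 1.46 CPM in replicates 1 to 4 of Vwf-Gata1+ MPP2. The signal was at the 40.9th percentile of all peaks, on 9 to 16 counts per library. Replicate 3 of Vwf+Gata1+ MPP2 stood above the other libraries, and without it the log2 difference of 0.18 ± 0.33 (SE; edgeR adjusted p = 0.966) became -0.09.

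The -18.5 kb peak (chr11:32164846-32165649, 804 bp), where Rm would lie, had 22.3, 20.6, 25.9 and 17.97 CPM in replicates 1 to 4 of Vwf+Gata1+ MPP2, against 24.0, 22.0, 18.3 and 18.8 CPM in replicates 1 to 4 of Vwf-Gata1+ MPP2. The groups were fully interleaved. Fitted on the log2 scale, they differed by 0.04 ± 0.12 (SE; edgeR adjusted p = 0.982), and the interval of 0.865-fold to 1.22-fold was among the narrowest of the window.

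The -14.5 kb peak (chr11:32169022-32169297, 276 bp), where R4 would lie, had 6.58, 6.00, 5.04 and 5.46 CPM in replicates 1 to 4 of Vwf+Gata1+ MPP2, against 6.67, 5.54, 6.44 and 3.36 CPM in replicates 1 to 4 of Vwf-Gata1+ MPP2. Replicate 4 of Vwf-Gata1+ MPP2 was again the lowest. Its log2 difference of 0.09 ± 0.21 (SE; edgeR adjusted p = 0.975) became -0.10 without that library.

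The low values of replicate 4 of Vwf-Gata1+ MPP2 recurred along the window. It was the lowest of the 8 libraries at 6 of the 13 tested peaks, namely those at -38.9, -37.9, -32.6, -27.4, -14.5 and -12.4 kb. No other library was lowest at more than 2. It was the highest at 1, the -46.5 kb peak. Without it the window summed to a log2 ratio of -0.03 between the group means, against 0.02 with it. Its total count of 7095045 was within the range of the others, 4628997 to 7753538.

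**Figure D4:**
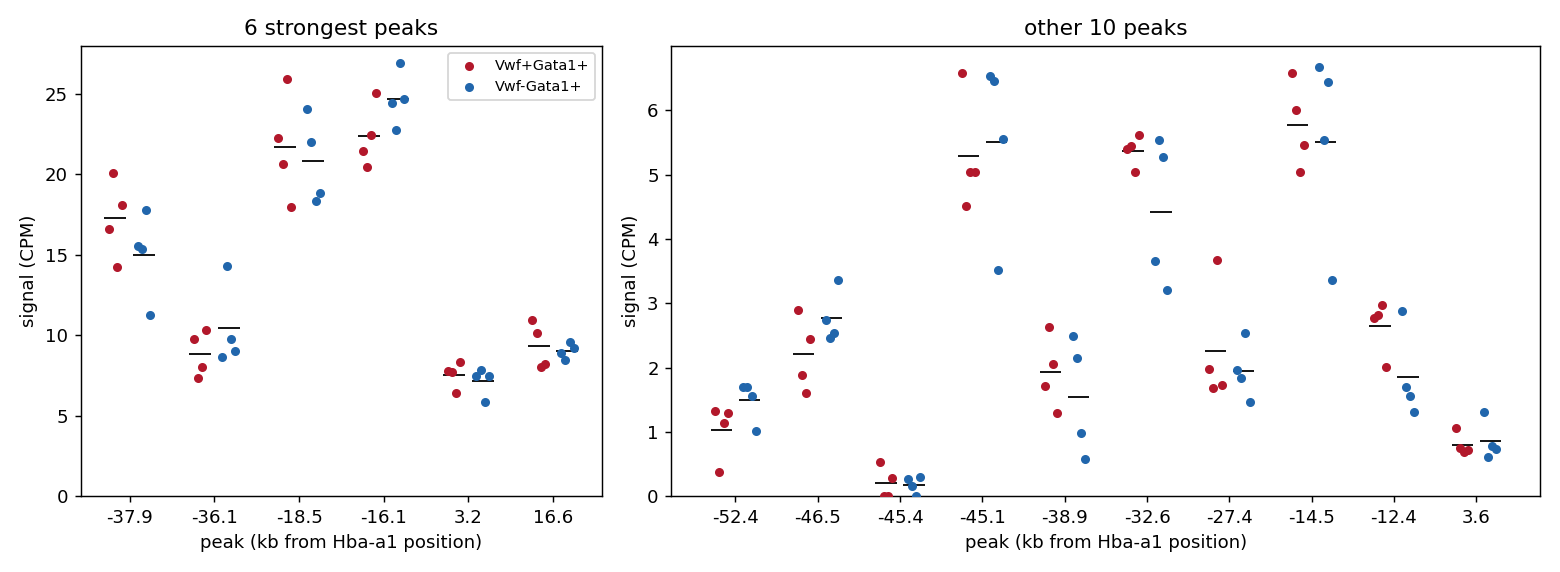
Signal in CPM (y axis) of each library of Vwf+Gata1+ and Vwf-Gata1+ MPP2 at the 6 peaks of highest mean CPM (left) and at the other 10 (right), named by kb from the Hba-a1 position (x axis), with a line at each group mean. The groups overlap at each peak, and at -32.6, -14.5 and -12.4 kb the lowest point is replicate 4 of Vwf-Gata1+ MPP2.

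The enhancer section held 6 other sites. The -36.1 kb peak (chr11:32147142-32147996), the widest of that section at 855 bp, had 9.75, 7.32, 8.02 and 10.4 CPM in replicates 1 to 4 of Vwf+Gata1+ MPP2, against 8.63, 14.3, 9.75 and 9.05 CPM in replicates 1 to 4 of Vwf-Gata1+ MPP2. Replicate 2 of Vwf-Gata1+ MPP2 stood highest and the remaining libraries overlapped. Here the log2 difference was -0.21 ± 0.18 (SE; edgeR adjusted p = 0.883). Leaving out single libraries moved it between -0.30, without replicate 1 of Vwf-Gata1+ MPP2, and -0.02, without replicate 2 of Vwf-Gata1+ MPP2. The peaks at -46.5, -45.1 and -38.9 kb had log2 fold changes of -0.29, -0.06 and 0.23, with adjusted p from 0.912 to 0.983 (edgeR). Without single libraries the value at -46.5 kb lay between -0.46, without replicate 1 of Vwf+Gata1+ MPP2, and -0.18, without replicate 4 of Vwf-Gata1+ MPP2. The -45.4 kb peak had 11 counts in all over the 8 libraries, with 0 in 3 of them, and was not tested. The -52.4 kb peak, with 65 counts in all, was not tested either.

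The globin gene section held 4 peaks. The -12.4 kb peak (chr11:32171226-32171469, 244 bp), between the enhancers and the first long stretch without a peak, had 2.77, 2.81, 2.98 and 2.01 CPM in replicates 1 to 4 of Vwf+Gata1+ MPP2, against 2.88, 1.69, 1.56 and 1.31 CPM in replicates 1 to 4 of Vwf-Gata1+ MPP2. Each library of Vwf+Gata1+ MPP2 lay above 3 of those of Vwf-Gata1+ MPP2, and replicate 1 of Vwf-Gata1+ MPP2 lay among them. This was the largest difference of the window, 0.46 ± 0.31 on the log2 scale (SE; edgeR adjusted p = 0.841), on 8 to 22 counts per library. Leaving out single libraries moved it between 0.31 and 0.78, the highest without replicate 1 of Vwf-Gata1+ MPP2 (edgeR unadjusted p = 0.0305, adjusted p = 0.684).

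The -12.4 kb peak was followed, past the Hba-a1 position, by the 3.2 kb peak (chr11:32186746-32187140, 395 bp), which lay between Hba-a1 and Hba-a2, where the GRCm38.p6 gene order places Hbq1b. It had 7.77, 7.69, 6.42 and 8.34 CPM in replicates 1 to 4 of Vwf+Gata1+ MPP2, against 7.45, 7.84, 5.85 and 7.44 CPM in replicates 1 to 4 of Vwf-Gata1+ MPP2. Replicate 3 was the lowest of each group. The groups differed by 0.08 ± 0.18 on the log2 scale (SE; edgeR adjusted p = 0.969). Leaving out single libraries moved this value between 0.01, without replicate 3 of Vwf-Gata1+ MPP2, and 0.14, without replicate 3 of Vwf+Gata1+ MPP2. Beside it the 3.6 kb peak had 43 counts in all and was not tested.

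The 16.6 kb peak (chr11:32199877-32200757), the widest of the window at 881 bp, lay past Hba-a2, the side on which the gene order places Hbq1a. It had 10.9, 10.1, 8.02 and 8.20 CPM in replicates 1 to 4 of Vwf+Gata1+ MPP2, against 8.89, 8.46, 9.56 and 9.19 CPM in replicates 1 to 4 of Vwf-Gata1+ MPP2. The libraries of Vwf-Gata1+ MPP2 all fell between the upper and the lower pair of Vwf+Gata1+ MPP2. Between the groups the log2 difference was 0.06 ± 0.16 (SE; edgeR adjusted p = 0.978). The peaks at 3.2 and 16.6 kb thus had signal in all 8 libraries, at the 75.7th and 79.8th percentile of all peaks.

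Levels of different sites were compared per kb of peak width, as the mean over all 8 libraries. The -16.1 kb peak led with 38.6 ± 3.47 CPM per kb, followed by the -37.9 kb peak with 28.2 ± 4.72, the -18.5 kb peak with 26.4 ± 3.53, the -14.5 kb peak with 20.4 ± 3.95 and the 3.2 kb peak with 18.6 ± 2.06 (SD, n = 8). The step from the first to the next was larger than the larger of their SDs, and the order held in 7 of 8 libraries. The peaks at -37.9 and -18.5 kb did not differ beyond this spread, and each was higher in 4 libraries. The step from -18.5 to -14.5 kb exceeded it, and the one from -14.5 to 3.2 kb did not. The -32.6 kb peak, where R2 would lie, had 11.5 ± 2.18 CPM per kb, and the -27.4 kb peak 5.59 ± 1.87. Of the 15 steps between neighbours in this order, 5 exceeded the spread.

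At 13 of the 16 peaks, the share of the counts of the window differed between the groups by less than the larger SD. The peaks at -16.1, -18.5 and -37.9 kb together took 53.6% ± 2.25 of its counts in Vwf+Gata1+ MPP2 and 53.5% ± 2.10 in Vwf-Gata1+ MPP2 (SD, n = 4 each), with single libraries from 50.4% to 55.7%. The -37.9 kb peak took 15.1% ± 2.29 in Vwf+Gata1+ MPP2 and 13.2% ± 1.88 in Vwf-Gata1+ MPP2. The gap exceeded the larger SD at 3 weak peaks. The -12.4 kb peak took 2.31% ± 0.387 in Vwf+Gata1+ MPP2 and 1.63% ± 0.526 in Vwf-Gata1+ MPP2. The -46.5 kb peak took 1.92% ± 0.450 in Vwf+Gata1+ MPP2 and 2.48% ± 0.564 in Vwf-Gata1+ MPP2, and the -52.4 kb peak 0.898% ± 0.379 in Vwf+Gata1+ MPP2 and 1.31% ± 0.201 in Vwf-Gata1+ MPP2. These differences in share were not tested. The -32.6 kb peak took 4.69% ± 0.222 in Vwf+Gata1+ MPP2 and 3.89% ± 0.885 in Vwf-Gata1+ MPP2. Counts in the window were 490 to 908 per library of Vwf+Gata1+ MPP2 and 581 to 912 per library of Vwf-Gata1+ MPP2, which limits how small a shift in these shares could be seen.

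The 3 tested peaks outside the window whose log2 CPM followed its summed signal most closely over the 8 libraries lay on chromosome 13 (chr13:58465632-58466068, Pearson r = 0.983), chromosome 11 (chr11:115063463-115064177, r = 0.982) and chromosome 9 (chr9:31079727-31080177, r = 0.981). The points are the same 8 libraries, scaled in the same way, and these are the highest of 97027 peaks searched, so the values are a description only.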

How the data were processed

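The authors deposited raw counts per peak for 8 ATAC-seq libraries. Per the submitters' processing notes, the genome was mm9, and MACS2, Picard, SAMtools, Bowtie2, FastQC and Trim Galore are listed without versions or roles. The settings of these tools, the treatment of reads with several map positions and of duplicates, any shift of read ends and the merging of peaks are not given in the sources used here. Groups came from the labelled cell type and replicate numbers from the titles. Each library was counted as a separate sample. Libraries within a group differed beyond sampling noise (chi-square per degree of freedom 1.32 to 2.09), which does not show that they came from separate animals.

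All peaks were fitted together with edgeR's quasi-likelihood test (robust, TMM scaling, filterByExpr with a minimum count of 10 and a minimum total of 15), which kept 97040 peaks, 72.2% of the table. P-values were adjusted by Benjamini-Hochberg over all of these, with a threshold of 0.05. CPM used the TMM-scaled library sizes, and log2 CPM a prior count of 2. Standard errors were taken as the log2 difference, without its sign, divided by the root of F. The fit was tested on simulated data. Each peak of the window was described, with full values for called peaks, for the 5 of highest mean CPM and for the 4 of lowest p, and, added later, for the sites where enhancers would lie and the 3.2 kb peak between the adult genes. The rule for the members used position alone, but the rule and the lists were chosen with earlier results of these data known. Promoters of other red cell genes, planned for an annotation of mm9, and peaks at the sorting markers were not analysed here. Alternatives were other scalings, filters and tools, a replicate block, other window edges and each library left out. Figures were drawn with matplotlib 3.10.9 in Python 3.11.15. Fits used DESeq2 1.42.0, limma 3.58.1 (voom with quality weights) and edgeR 4.0.16 in R 4.3.3.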

Additional observations from a re-analysis of the deposited data

Results flagged for a closer look

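In 38 groups of 4 libraries, from the 16 peaks and 3 sums in each subpopulation, 1 library stood apart from its group by Dixon's criterion, where chance gives about 1 in 20. It was replicate 3 of Vwf+Gata1+ MPP2 at the -27.4 kb peak, with 3.67 CPM against 1.69 to 1.98 CPM in the other 3 libraries of that group. That value rests on 16 counts.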

How the results depend on the processing

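In 17 other fits, 0 of the 220 values of the 13 tested peaks with an adjusted p passed the threshold (DESeq2 gave none at -38.9 kb), with a lowest adjusted p of 0.516 at -37.9 kb under the replicate block, and 2 had an unadjusted p under 0.05. The direction changed in 10 values, each without 1 library. Leaving out libraries gave log2 values from -0.20 to 0.030 at -45.1 kb, -0.053 to 0.59 at -38.9 kb, -0.087 to 0.30 at -27.4 kb, -0.042 to 0.12 at -18.5 kb, -0.096 to 0.22 at -14.5 kb and -0.036 to 0.13 at 16.6 kb. The summed signal of the window and of its sections moved by less than the spread between libraries under each scaling, edge and left-out library. The median percentile of the window peaks, 67.5, was 58.1 among peaks that pass the filter, since weak peaks are then left out.

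Over the whole table, the 14 calls became 27 with total count scaling, 0 with limma-voom and quality weights for the libraries (7236 at an unadjusted p under 0.05, against 6522 by edgeR), 211 with the replicate 1 libraries as a term, an alternative added after seeing the data, and between 3 and 76 without 1 library, the highest without replicate 1 of Vwf+Gata1+ MPP2 and the lowest without replicate 1 of Vwf-Gata1+ MPP2. The replicate block gave 511, and 0 in the window. The labels do not tie same-numbered samples to one source, and deviations of same-numbered libraries correlated at 0.301, 0.163, 0.074 and 0.0103. The cause of these moves was not tested. Depth limits the weakest sites most, with standard errors of the log2 fold change from 0.109 to 0.380 over the 13 peaks.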
